A study of Homo sapiens with 9 samples.

Results

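The 10 genes described here are transcription factors that drive epithelial-mesenchymal transition (EMT) and the marker genes used to score it: SNAI1, SNAI2, ZEB1, ZEB2, TWIST1, TWIST2, VIM, CDH2, FN1 and TNC. They were taken by symbol from the 23710 entries of the count table, and all 10 were found. Of these, 8 had enough counts to be tested among 12546 genes, and TWIST1 and TWIST2 had no count in any library. The cells were MDA-MB-231, a human breast cancer line classed as triple-negative and mesenchymal. They received lentivirus made from the vector pGIPZ, which carries a short hairpin RNA: a non-targeting one in the controls (shNT), or a hairpin against UGDH in the other groups (shUGDH-1 or shUGDH-2). Each of the 3 groups had 3 libraries. The labels call the cultures biological replicates and do not say whether each was transduced on its own, so the p-values reflect only the spread among these libraries, which may be technical.

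In EMT, epithelial cells lose their junctions and take on a migratory, matrix-producing state. Factors of the SNAI, ZEB and TWIST families bind E-box sequences, and the SNAI and ZEB factors repress junction genes such as CDH1. Vimentin (VIM), N-cadherin (CDH2), fibronectin (FN1) and tenascin-C (TNC) are the filament, adhesion and matrix products that mark the mesenchymal state. UGDH makes UDP-glucuronate, the sugar donor from which hyaluronan and other glycosaminoglycans of that matrix are built.

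The sequences that the labels give for the 3 hairpins are shown because all comparisons rest on them. A short hairpin can also act on other messages through the seed of its guide strand. Capitals mark bases 2 to 8 from the 5′ end of each sequence as the labels give it. They are the seed if that strand is the guide, which the labels do not state.
shNT: aTCTCGCTtgggcgagagtaag
shUGDH-1: tTGCATCAaatatgcgacg
shUGDH-2: aTATACTTcagatctgctg
Of UGDH and the 10 genes, only UGDH had GENCODE transcripts to which the shUGDH-1 and shUGDH-2 sequences were antisense over their 19 bases. The shNT sequence was neither antisense nor sense to any of them. Its strand is thus not settled, and its marked bases may not be the seed of a guide. The reverse complement of the shUGDH-1 seed occurred in the annotated 3′ UTR of ZEB2 alone among the 10 genes, and in 10.2% of 17466 genes with such a UTR. That of shUGDH-2 occurred in SNAI2, ZEB1, ZEB2 and FN1, and in 13.4% of all genes. That of the bases marked for shNT occurred in TWIST1, and in 5.22% of all genes. TNC, VIM, SNAI1, CDH2 and TWIST2 held none of the 3. Only the longest annotated 3′ UTR of each gene was searched. Whether any of these matches is used in the cells was not tested.

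The promoter windows of FN1 and TNC are shown because these genes differed from shNT with both hairpins, FN1 upward and TNC downward. Each window runs from 250 bases before to 50 bases after a RefSeq transcript start in GRCh38.p14, read 5′ to 3′ on the gene's strand. A RefSeq window was found for 7 of the 10 genes. Capitals mark matches on either strand to CAGGTG (the E-box that SNAI and ZEB factors prefer), CANNTG (any E-box, which includes CAGGTG), TGACGTCA (the cyclic AMP response element) and CCAAT.
FN1, chr2:215436019-215436318, minus strand: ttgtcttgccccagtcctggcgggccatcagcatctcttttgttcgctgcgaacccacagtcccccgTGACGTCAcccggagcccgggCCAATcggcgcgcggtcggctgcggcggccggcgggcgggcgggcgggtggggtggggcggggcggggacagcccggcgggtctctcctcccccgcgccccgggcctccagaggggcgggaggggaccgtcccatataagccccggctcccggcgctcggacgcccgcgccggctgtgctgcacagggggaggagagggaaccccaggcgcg
TNC, chr9:115118108-115118407, minus strand: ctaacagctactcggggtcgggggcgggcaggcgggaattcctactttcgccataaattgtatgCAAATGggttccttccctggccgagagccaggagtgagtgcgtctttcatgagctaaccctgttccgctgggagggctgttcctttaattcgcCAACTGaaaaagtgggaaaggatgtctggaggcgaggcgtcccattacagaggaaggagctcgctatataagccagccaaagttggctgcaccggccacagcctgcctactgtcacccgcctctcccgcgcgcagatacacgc
In the GENCODE annotation of GRCh38, FN1 spans chr2:215360440-215436172 and TNC chr9:115019578-115118257. The FN1 window held TGACGTCA at -183 and CCAAT at -162 from the start. TGACGTCA occurred in 1.85% of 35116 RefSeq windows of this length and CCAAT in 34.6%. The TNC window held CANNTG at -186 and -93, a match present in 68.7% of windows, and no CAGGTG, which 20.6% of windows held. The VIM window, on the plus strand at chr10:17227991-17228290, held none of the 4. These matches describe letters in the windows and are not evidence of binding.

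The libraries held 9249738 to 13328002 counts, and 14899 to 15278 genes had a count. Replicate 1 of shNT differed from the other shNT libraries by 1.91 and 1.87 times the variance of counting alone, against 1.19 to 1.47 for the other pairs within a group. UGDH fell from 53.0 ± 2.67 CPM (read counts scaled to library size) in shNT to 7.65 ± 0.37 in shUGDH-1 and 7.17 ± 0.80 in shUGDH-2 (SD, n = 3), which leaves 14.4% and 13.5%. The identity of the line was checked on marker genes. With shNT, the oestrogen receptor ESR1 and progesterone receptor PGR had no count, and GATA3, EPCAM and ERBB2 stood at 37.5, 8.35 and 117 CPM. The mesenchymal markers AXL and CD44 stood at 2263 and 1132 CPM with shNT, whereas SPARC, another such marker, averaged under 1 CPM in each group. Of 10 leukocyte and blood markers, 5 had no count in each group, and the list summed to 85.1 to 101 CPM per library. Nearly all of that was CD68, a lysosomal protein gene, at 96.0 CPM in shNT, 85.5 in shUGDH-1 and 88.2 in shUGDH-2 (adjusted p = 0.00376 and 0.0416, edgeR). It was called lower in all 18 alternative settings with shUGDH-1 and in 9 with shUGDH-2.

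VIM was by far the most abundant of the 10 genes per length of message. Levels were ordered as CPM per kilobase of annotated exon in the shNT libraries, over 11621 tested genes with a known length. VIM stood at 1181 ± 28.2 CPM per kb (SD, n = 3) and ranked 10 of 11621. SNAI2, which encodes Slug, followed at 35.3 ± 2.09. FN1 at 14.3 ± 0.435 and ZEB1 at 13.5 ± 0.66 came next, and the libraries of this pair overlapped, so their order is not resolved. SNAI1, which encodes Snail, stood at 9.50 ± 0.729, TNC at 3.85 ± 0.34, ZEB2 at 1.36 ± 0.051 and CDH2 at 0.151 ± 0.0634 CPM per kb (SD, n = 3), the latter at rank 11494. Among these 8 genes, neighbours in the order other than FN1 and ZEB1 did not overlap. VIM made up 93.8% ± 0.10 of the summed level of the 10 genes in shNT, 94.6% ± 0.20 in shUGDH-1 and 93.3% ± 0.13 in shUGDH-2 (SD, n = 3). The length of ZEB2 covers 13357 exon bases over all annotated isoforms, so its level per kilobase is understated if the cells use shorter ones.

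**Figure D1:**
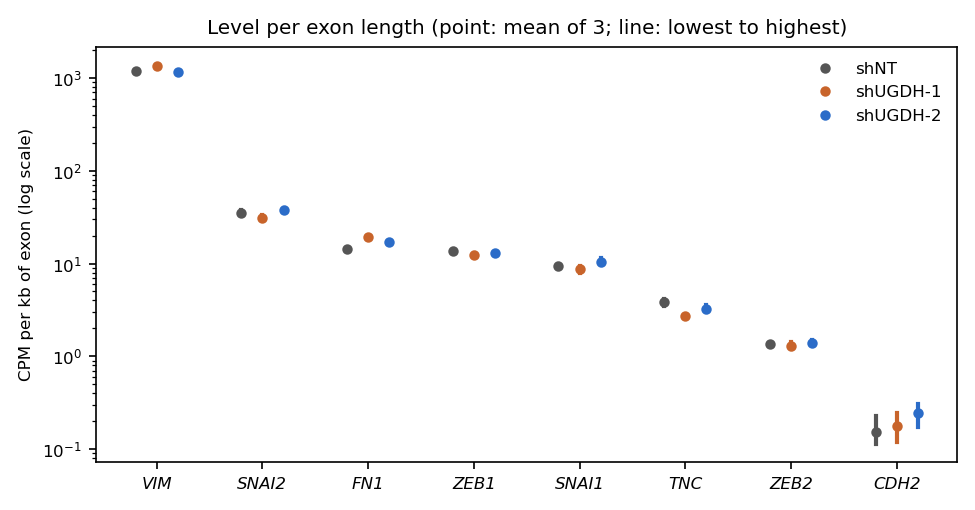
Level of the 8 genes with counts in CPM per kilobase of annotated exon, on a log scale, ordered by the shNT mean. Points are means of 3 libraries and lines run from the lowest to the highest library. VIM lies more than an order of magnitude above SNAI2, and CDH2 lies lowest, at 0.151 CPM per kb with shNT.

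Against shNT, 5 of the 8 tested genes passed with shUGDH-1 and 2 with shUGDH-2. With shUGDH-1, VIM and FN1 rose and SNAI2, ZEB1 and TNC fell, so 2 of 8 were higher and 3 of 8 lower. Of all 12546 genes tested, 10.5% were called higher and 10.3% lower in that comparison. With shUGDH-2, FN1 rose and TNC fell, 1 of 8 in each direction, beside 8.04% higher and 6.81% lower among all genes, a share near that background. The median log2 fold change of the 8 genes was -0.09 with shUGDH-1 and 0.06 with shUGDH-2, against all-gene medians of -0.003 and -0.006. Both comparisons use the same shNT libraries, so a chance deviation of those controls moves both. In bulk RNA, a change in the share of cells that express a gene cannot be told apart from a change in RNA per cell.

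SNAI2 fell with shUGDH-1, and neither SNAI factor passed with shUGDH-2. SNAI2 was measured at 82.6, 91.5 and 82.8 CPM in shNT, at 72.0, 74.5 and 81.9 in shUGDH-1, and at 89.1, 87.3 and 96.3 in shUGDH-2. All shUGDH-1 libraries lay below all shNT libraries, by a small margin at the closest pair, and the shUGDH-2 libraries overlapped shNT. With shUGDH-1 the log2 fold change of SNAI2 was -0.18 (SE 0.05, adjusted p = 0.00506, quasi-likelihood test of edgeR, adjusted over all genes by Benjamini-Hochberg, as throughout). The call was lost without replicate 2 of shNT (-0.13, adjusted p = 0.0751, edgeR) and without replicate 1 of shUGDH-1 (-0.14, adjusted p = 0.0743, edgeR). In the authors' deposited table the same change was -0.17 with an adjusted p of 0.0619. With shUGDH-2 SNAI2 differed from shNT by 0.09 (95% interval -0.01 to 0.18, adjusted p = 0.225, edgeR).

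SNAI1, a labile factor whose protein is controlled largely by phosphorylation and degradation, was expressed at a lower level. Its values were 14.6, 16.7 and 16.8 CPM in shNT, 15.4, 13.2 and 15.8 in shUGDH-1, and 16.3, 16.9 and 19.4 in shUGDH-2. Each hairpin's libraries overlapped the controls, while all shUGDH-2 libraries lay above all shUGDH-1 libraries. The log2 fold change was -0.12 (95% interval -0.31 to 0.08) with shUGDH-1 and 0.13 (-0.05 to 0.32) with shUGDH-2, and neither passed (adjusted p = 0.444 and 0.385, edgeR). SNAI2 exceeded SNAI1 by 5.36 ± 0.379 times in CPM with shNT, 5.16 ± 0.475 times with shUGDH-1 and 5.21 ± 0.259 times with shUGDH-2 (SD, n = 3), and the groups overlapped. SNAI3, the remaining family member, held 17, 9 and 7 counts in the respective groups and was not tested.

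Of the ZEB factors, ZEB1 fell with shUGDH-1 by a margin that most alternative settings did not keep, and ZEB2 passed with neither hairpin. ZEB1, the E-box repressor held in mutual inhibition with miR-200, was at 83.4, 86.5 and 91.7 CPM in shNT, at 82.9, 80.1 and 76.5 in shUGDH-1, and at 81.9, 86.3 and 85.2 in shUGDH-2. The shUGDH-1 libraries lay just below the lowest control library, and the shUGDH-2 libraries overlapped the controls. The log2 fold change with shUGDH-1 was -0.12 (SE 0.04, adjusted p = 0.0428, edgeR). This call was kept in 8 of 18 alternative settings, with adjusted p-values of 0.0127 to 0.264, and without replicate 3 of shNT the value was -0.08. Leaving out replicate 2 of shNT, replicate 2 or 3 of shUGDH-1, or replicate 1 of shUGDH-2 also ended it (adjusted p = 0.0655, 0.104, 0.19 and 0.0506, edgeR), and the authors' deposited table gives an adjusted p of 0.114. With shUGDH-2 ZEB1 differed by -0.04 (95% interval -0.13 to 0.04, adjusted p = 0.584, edgeR).

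ZEB2 was measured at 17.4, 18.4 and 18.7 CPM in shNT, at 15.9, 18.9 and 17.4 in shUGDH-1, and at 19.9, 18.0 and 17.9 in shUGDH-2, and all groups overlapped. Its log2 fold change was -0.07 (95% interval -0.24 to 0.11) with shUGDH-1 and 0.03 (-0.14 to 0.20) with shUGDH-2. ZEB1 exceeded ZEB2 by 4.79 ± 0.105 times in CPM with shNT, 4.62 ± 0.525 with shUGDH-1 and 4.55 ± 0.377 with shUGDH-2 (SD, n = 3). The antisense gene ZEB1-AS1 was low, at 2.81 ± 0.60, 3.22 ± 0.278 and 2.95 ± 0.234 CPM, and passed in no comparison. Whether counting used strand is not given in the sources used here, so reads from ZEB1 and its antisense partner may not have been separated.

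TWIST1 and TWIST2, basic helix-loop-helix factors, had 0 counts in all 9 libraries. At these depths a count of 0 allows up to 0.225 to 0.324 CPM per library, taken as 3 counts of the total. No fold change can be given for either gene. Such limits cover counting error only, whereas the intervals given for the other genes cover counting error and the spread between libraries only.

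VIM rose with shUGDH-1, and CDH2, the cadherin marker, passed with neither hairpin. VIM, the main intermediate filament of mesenchymal cells, was at 2145, 2241 and 2230 CPM in shNT, at 2485, 2526 and 2474 in shUGDH-1, and at 2127, 2135 and 2172 in shUGDH-2. Every shUGDH-1 library was above every library of the other groups, and the shUGDH-2 libraries overlapped the low end of shNT. VIM rose 1.13-fold with shUGDH-1 (log2 0.18, SE 0.02, adjusted p = 1.2e-13, edgeR). With shUGDH-2 it differed by -0.04 (95% interval -0.07 to -0.01, adjusted p = 0.0865, edgeR). Without replicate 1 of shNT, the control library that stood apart, the shUGDH-2 value was -0.06 and passed (adjusted p = 0.00946, edgeR). CDH2 was close to the detection limit, with 13, 6 and 6 counts in shNT, 10, 7 and 10 in shUGDH-1, and 16, 10 and 14 in shUGDH-2. In CPM these were means of 0.673 ± 0.282, 0.794 ± 0.28 and 1.08 ± 0.292 (SD, n = 3), and the groups overlapped. Its intervals were wide, from -0.70 to 1.01 on the log2 scale with shUGDH-1 and from -0.14 to 1.42 with shUGDH-2, so both include 0 as well as a log2 change of 1, and no change was detectable at this depth.

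FN1 and TNC, both matrix glycoproteins bound by integrins, moved in opposite directions. FN1 was at 127, 128 and 134 CPM in shNT, at 174, 179 and 180 in shUGDH-1, and at 153, 155 and 151 in shUGDH-2. The 3 groups did not overlap, with shNT lowest and shUGDH-1 highest. FN1 rose 1.37-fold with shUGDH-1 (log2 0.45, SE 0.03, adjusted p = 2.96e-17, edgeR) and 1.18-fold with shUGDH-2 (log2 0.24, SE 0.03, adjusted p = 1.71e-07, edgeR). It passed in all 18 alternative settings in both comparisons. Of all tested genes, 94.7% had a smaller absolute change than FN1 with shUGDH-1 and 86.3% with shUGDH-2.

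TNC, a matrix protein that modulates cell adhesion to fibronectin, was at 31.4, 37.5 and 35.3 CPM in shNT, at 23.7, 25.3 and 23.8 in shUGDH-1, and at 32.4, 28.8 and 27.2 in shUGDH-2. All shUGDH-1 libraries lay below both other groups, and the highest shUGDH-2 library lay above the lowest control. TNC fell to 70.2% of the shNT level with shUGDH-1 (log2 -0.51, SE 0.07, adjusted p = 1.5e-07, edgeR), and this passed in all 18 alternative settings. With shUGDH-2 it fell to 85.0% (log2 -0.23, SE 0.07, adjusted p = 0.0146, edgeR). The latter call was lost with DESeq2 (adjusted p = 0.0866) and without replicate 2 or 3 of shNT (adjusted p = 0.127 and 0.0555, edgeR) or replicate 2 or 3 of shUGDH-2 (adjusted p = 0.068 and 0.134, edgeR), and the authors' deposited table gives an adjusted p of 0.12. FN1 exceeded TNC in CPM by 3.76 ± 0.318 times in shNT, 7.34 ± 0.246 times in shUGDH-1 and 5.23 ± 0.441 times in shUGDH-2 (SD, n = 3), and the libraries of the 3 groups did not overlap in this ratio.

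**Figure D2:**
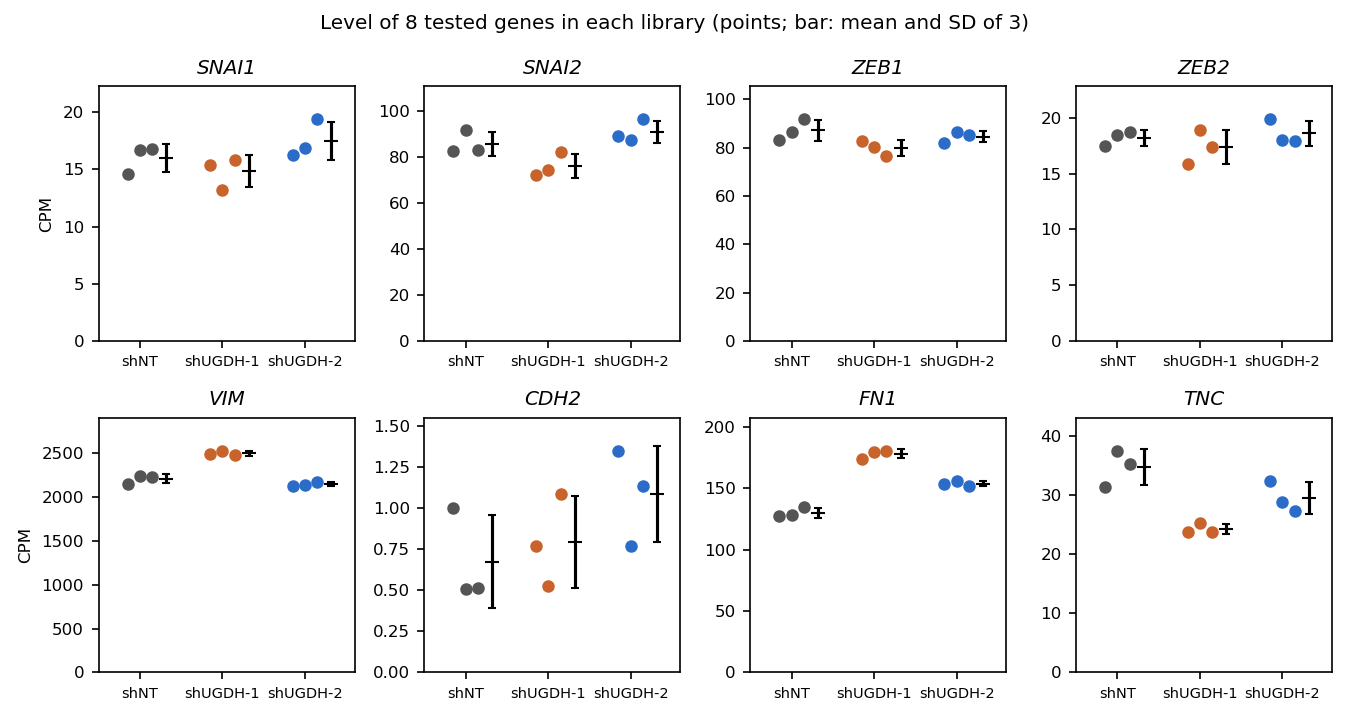
CPM of the 8 tested genes in each of the 9 libraries, with the mean and SD of 3 beside each group, on axes that start at 0. FN1 separates all 3 groups, VIM and TNC set shUGDH-1 apart, and the libraries of SNAI1, ZEB2 and CDH2 overlap between each hairpin and shNT.

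The hairpins were also compared with each other directly, since a difference in passing against shNT does not show that they differ. In this comparison 2 of 8 genes were higher with shUGDH-2, SNAI2 and TNC, and 2 of 8 were lower, VIM and FN1, beside 5.36% higher and 5.51% lower of all genes. SNAI2 differed by 0.26 (SE 0.05, adjusted p = 3.99e-05, edgeR), TNC by 0.28 (SE 0.08, adjusted p = 0.00811, edgeR), VIM by -0.22 (SE 0.02, adjusted p = 6.96e-17, edgeR) and FN1 by -0.21 (SE 0.03, adjusted p = 1.17e-06, edgeR). For each of these 4 the libraries of the hairpins did not overlap. The TNC difference was lost without replicate 1 of shUGDH-1 (adjusted p = 0.0521, edgeR), without replicate 1 of shUGDH-2 (adjusted p = 0.12, edgeR) and with DESeq2 (adjusted p = 0.0673). SNAI1 stood 0.25 higher with shUGDH-2 (95% interval 0.06 to 0.44) without passing (adjusted p = 0.0811, edgeR), and ZEB1, ZEB2 and CDH2 did not pass. Remaining UGDH differed by -0.09 (SE 0.13, adjusted p = 0.74, edgeR) between the hairpins.

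**Figure D3:**
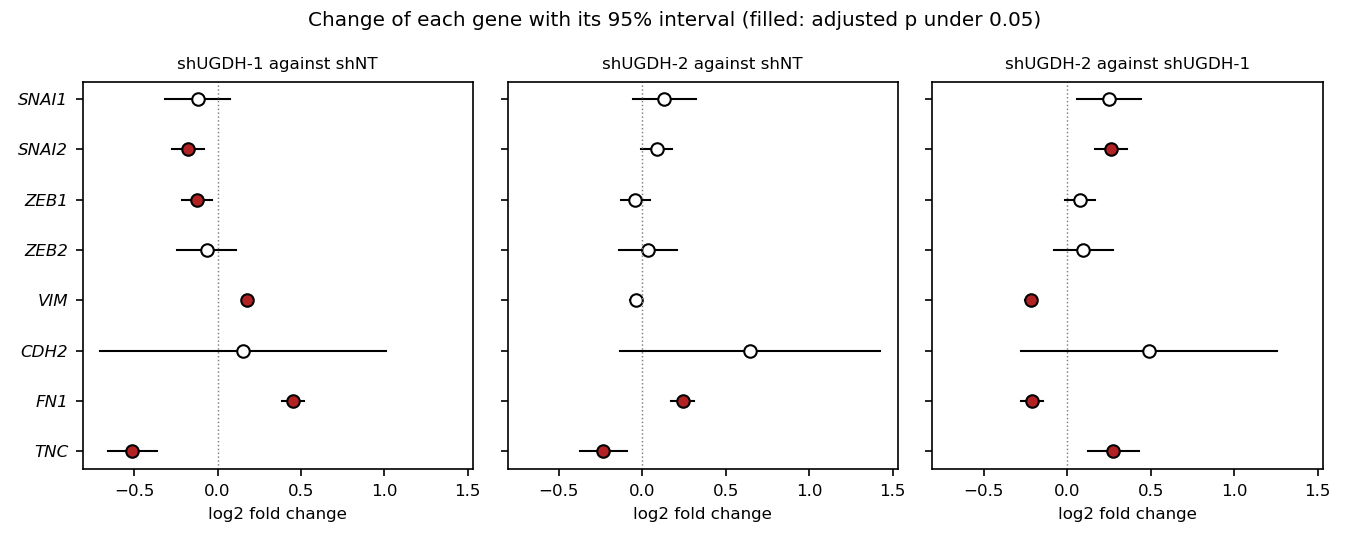
Log2 fold change of the 8 tested genes in the 3 comparisons with 95% intervals, filled where the adjusted p was under 0.05. FN1 lies right of 0 and TNC left of 0 with both hairpins, and the widest intervals are those of CDH2.

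Other transcription regulators listed as EMT-promoting, ID1, ID2 and ID3 among them, passed in both directions. Of 23 tested, shUGDH-1 gave 4 higher and 3 lower and shUGDH-2 gave 5 higher and 1 lower, beside the all-gene shares of 10.5% and 10.3%, and of 8.04% and 6.81%. The 1 lower with shUGDH-2 was ID1 (log2 -0.18, adjusted p = 0.00896, edgeR), so the downward direction with that hairpin rests on ID1 alone. The 5 higher include KLF8, at 0.424 CPM in shNT and 1.45 in shUGDH-2. It could pass the filter on low counts through shUGDH-2 alone, so its call is description only. The list medians were -0.004 and -0.01 on the log2 scale. SOX9, a progenitor-cell factor, rose from 327 ± 5.20 to 362 ± 5.31 and 391 ± 5.04 CPM (SD, n = 3), 1.11-fold and 1.19-fold (adjusted p = 2.03e-06 and 3.82e-13, edgeR). RUNX1, best known from blood development, rose 1.07-fold with each hairpin (adjusted p = 0.0218 and 0.0268, edgeR). LEF1, the nuclear partner of beta-catenin, was low, and fell from 1.60 ± 0.332 to 0.636 ± 0.166 CPM (SD, n = 3) with shUGDH-1 (adjusted p = 0.00506, edgeR). HMGA2, an architectural chromatin protein, fell by 0.27 on the log2 scale with shUGDH-1 (adjusted p = 0.0101, edgeR), with overlapping libraries. Without 1 library at a time the number that rose ranged from 2 to 6 with shUGDH-1, lowest without replicate 3 of shNT. With shUGDH-2 it ranged from 2 to 5, and was 3 or fewer without replicate 1 or 3 of shNT or any of the shUGDH-2 replicates, while the number that fell ranged from 0 (without replicate 3 of shNT) to 3 (without replicate 1 of shNT). DESeq2 gave 2 higher and 1 lower for shUGDH-1, against 1 higher and 2 lower for shUGDH-2. SOX9 passed in all 18 alternative settings with each hairpin. LEF1 was lost with DESeq2 alone. RUNX1 kept its call in 15 settings with shUGDH-1 (lost with DESeq2 and without replicate 3 of shNT or replicate 2 of shUGDH-1) and in 12 with shUGDH-2 (lost with DESeq2 and without replicate 2 or 3 of shNT or any shUGDH-2 replicate). HMGA2 lost its call with DESeq2 and without replicate 1 or 3 of shNT or replicate 1 of shUGDH-1.

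Factors that oppose EMT were mostly scarce. Of 17 listed, 8 were tested, with 2 higher and 1 lower with shUGDH-1 and 2 higher with shUGDH-2. The background for shUGDH-1 was 10.5% of the 12546 tested genes higher and 10.3% lower. That for shUGDH-2 was 8.04% higher and 6.81% lower. The 1 lower gene was near its background, and 8 genes are too few for a close comparison with these shares. OVOL2 had no count, and GRHL2 and ESRP1 averaged at most 0.197 and 0.14 CPM in any group. ELF3, an epithelial ETS factor, rose from 3.36 ± 0.644 to 5.22 ± 0.102 CPM (SD, n = 3) with shUGDH-1 (adjusted p = 0.00572, edgeR), as did the splicing regulator ESRP2, from 7.23 ± 0.363 to 9.42 ± 0.255 (adjusted p = 0.0198, edgeR). GATA3, a luminal breast factor, rose with shUGDH-2 from 37.5 ± 3.11 to 45.8 ± 2.36 CPM (SD, n = 3; adjusted p = 0.000396, edgeR). EHF, another ETS factor, fell by 0.14 on the log2 scale with shUGDH-1 (adjusted p = 0.0056, edgeR) and rose by 0.13 with shUGDH-2 (adjusted p = 0.0142, edgeR), and the hairpins differed by 0.27 (adjusted p = 2.58e-07, edgeR). The 2 that rose with shUGDH-1, ELF3 and ESRP2, became 0 without replicate 1 of shNT or with DESeq2, and ESRP2 alone was also lost without replicate 3 of shNT or replicate 2 of shUGDH-1. The shUGDH-2 call of EHF was lost with DESeq2 and when replicate 3 of either shNT or shUGDH-2 was left out, which leaves GATA3.

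Epithelial genes that the SNAI and ZEB factors are known to repress rose more often than they fell. With shUGDH-1, 17 of 27 tested genes rose, none fell and 10 did not pass, beside 10.5% of all genes higher, with a median of 0.34 on the log2 scale. With shUGDH-2, 12 rose, none fell and 15 did not pass, beside 8.04% of all genes higher, with a median of 0.16. With DESeq2, 7 rose with shUGDH-2, and without replicate 2 of shUGDH-2 1 gene fell. OCLN, which encodes the tight junction protein occludin, went from 4.05 ± 0.265 to 7.82 ± 0.374 CPM with shUGDH-1 and 5.73 ± 0.508 with shUGDH-2 (SD, n = 3), where the call was lost without replicate 1 or 2 of shNT or replicate 1 of shUGDH-2. In the direct comparison 14 of the 27 were lower with shUGDH-2 and 1, the plakoglobin gene JUP, was higher. Of all genes, 5.51% were lower and 5.36% higher there. CDH1, the E-cadherin gene and the best-known SNAI and ZEB target, was too low to enter the test, with 2, 2 and 4 counts in shNT, 9, 9 and 3 in shUGDH-1, and 13, 12 and 5 in shUGDH-2. All shUGDH-2 libraries were above all controls in CPM, and the shUGDH-1 libraries overlapped them. When genes with low counts were kept, the log2 change of CDH1 was 1.39 (SE 0.63, adjusted p = 0.134, edgeR) with shUGDH-1 and 1.83 (SE 0.58, adjusted p = 0.02, edgeR) with shUGDH-2, and its level was at most 1.10 CPM in any library.

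Mesenchymal genes other than the 10 also rose more often than they fell. Of 37 tested, shUGDH-1 gave 14 higher and 6 lower, beside 10.5% and 10.3% of all genes. With shUGDH-2, 13 were higher and 2 lower, beside 8.04% and 6.81%, so the lower genes did not exceed that background. The list medians were 0.08 and 0.04, against all-gene medians of -0.003 and -0.006. With both hairpins 9 were higher and 0 lower, and 4 passed in opposite directions. CDH11, a cadherin of mesenchymal cells, rose from 16.9 ± 1.99 to 30.0 ± 1.37 and 24.1 ± 1.14 CPM (SD, n = 3). LOXL2, an enzyme that cross-links collagen and elastin, rose from 423 ± 4.27 to 499 ± 16.0 and 504 ± 7.28 CPM (SD, n = 3), and the metabolic enzyme gene NNMT rose 1.24-fold and 1.28-fold. FBN1, fibrillin-1, rose 1.46-fold and 1.26-fold. CDH11, LOXL2, NNMT and FBN1 passed with both hairpins. The 6 that fell with shUGDH-1 became 1 without replicate 3 of shNT, replicate 1 of shUGDH-1 or replicate 2 of shUGDH-1, 3 without replicate 2 of shNT or with upper quartile scaling, and 0 with DESeq2. With DESeq2, 1 fell with shUGDH-2.

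**Figure D4:**
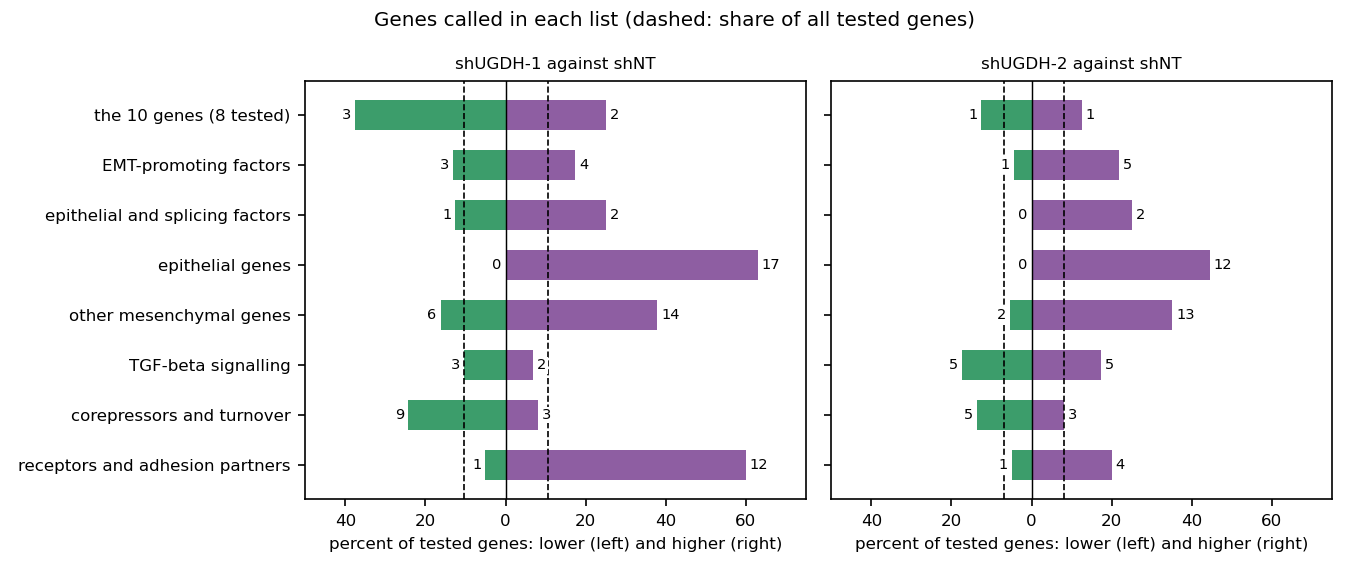
Percent of tested genes in each list that were lower (left) or higher (right) than shNT, with the number of genes at each bar, for shUGDH-1 and shUGDH-2. Dashed lines give the share of all tested genes called in that direction, and the epithelial genes extend furthest to the right, with 17 and 12 of 27.

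Genes of TGF-beta signalling, a main inducer of the SNAI and ZEB factors, passed in both directions. Of 29 tested, shUGDH-1 gave 2 higher and 3 lower, beside 10.5% and 10.3% of all genes, so neither number exceeded that background. With shUGDH-2 there were 5 of each, beside 8.04% of all genes higher and 6.81% lower. Without replicate 1 of shNT, 1 was higher with shUGDH-1 and 3 were lower with shUGDH-2, and DESeq2 gave 3 of each with shUGDH-2. INHBA, which encodes a subunit of activin A, rose from 4.01 ± 0.757 to 13.1 ± 0.901 and 10.7 ± 0.859 CPM (SD, n = 3), and TGFB1 itself rose 1.12-fold and 1.14-fold (adjusted p = 0.00397 and 0.00103, edgeR). SMAD7, an inhibitor of the pathway that the pathway also induces, fell by 0.31 and 0.41 on the log2 scale (adjusted p = 0.00328 and 0.000245, edgeR), and LTBP1, which holds TGF-beta in the matrix, fell by 0.32 with each hairpin (adjusted p = 0.022 and 0.0263, edgeR). TGFB2 rose with shUGDH-2, from 232 to 268 CPM (adjusted p = 9.62e-08, edgeR), and was at 221 CPM with shUGDH-1 without passing (adjusted p = 0.0821, edgeR). The shUGDH-1 call of TGFB1 was lost without replicate 1 of shNT. That of LTBP1 was lost with DESeq2 and without replicate 3 of shNT or replicate 1 or 3 of shUGDH-1, and its shUGDH-2 call without replicate 3 of shNT or replicate 1 or 3 of shUGDH-2. The receptor TGFBR2 passed with neither hairpin, at 163, 162 and 157 CPM.

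Corepressors and genes for RNA stability and protein turnover of the EMT factors passed in both directions. Of 37 tested, 3 were higher and 9 lower with shUGDH-1 (5 lower without replicate 2 of shUGDH-1 or with DESeq2). For shUGDH-2 the numbers were 3 higher and 5 lower. The shUGDH-1 comparison called 10.5% of the whole tested set higher and 10.3% lower. In the shUGDH-2 comparison the corresponding shares were 8.04% and 6.81%. The higher genes of this list were near or below that background for either hairpin, and the lower genes were above it in this fit. With shUGDH-2 the higher genes became 0 with DESeq2 or when replicate 3 of either shNT or shUGDH-2 was left out, and 1 without replicate 2 of shUGDH-2. The lower genes became 1 without replicate 1 of shUGDH-2 or with DESeq2, and 2 without replicate 1 of shNT or replicate 3 of shUGDH-2. SIN3A, a corepressor scaffold used by SNAI1, rose 1.12-fold and 1.09-fold (adjusted p = 0.00211 and 0.02, edgeR). SUZ12, a Polycomb subunit, fell by 0.11 and 0.14 on the log2 scale, and the deubiquitinase gene USP1 by 0.11 and 0.12. FBXW7, a ubiquitin ligase subunit, fell by 0.32 with shUGDH-1 (adjusted p = 0.00908, edgeR). SIN3A passed in all 18 alternative settings with shUGDH-1, and its shUGDH-2 call was lost with DESeq2 and without replicate 1 or 3 of either group. DESeq2 also gave no call for SUZ12, USP1 or FBXW7. SUZ12 kept 10 calls of 18 for shUGDH-1, none of them without replicate 1 or 3 of shNT or any shUGDH-1 replicate, and 15 for shUGDH-2, none without replicate 1 of shNT or of shUGDH-2. USP1 kept 14 for each hairpin, none without replicate 3 of shNT, replicate 2 or 3 of shUGDH-1, or replicate 1 or 3 of shUGDH-2, and FBXW7 kept 15, none without replicate 3 of shNT or replicate 2 of shUGDH-1. ELAVL1, an RNA-binding protein that stabilises many messages, did not pass (-0.03 and -0.07).

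Receptors and adhesion partners of FN1, TNC, CDH2 and VIM rose in 12 of 20 cases and fell in 1 with shUGDH-1. Of all genes, 10.5% were called higher and 10.3% lower in that comparison. With shUGDH-2, 4 rose and 1 fell, beside 8.04% and 6.81% of all genes. That 4 became 1 without replicate 3 of shNT, and 2 with DESeq2 or when replicate 1 of shNT or replicate 1 or 2 of shUGDH-2 was left out, and 2 fell without replicate 2 of shNT. The fibronectin receptor is a pair of ITGA5 and ITGB1. ITGA5 rose from 132 to 142 CPM with shUGDH-1 (adjusted p = 0.0223, edgeR) and stood at 135 with shUGDH-2 (adjusted p = 0.609, edgeR), whereas ITGB1 fell from 1005 ± 25.4 to 941 ± 21.8 and 942 ± 11.6 CPM (SD, n = 3; adjusted p = 0.000137 and 0.000304, edgeR). SDC4, a syndecan that assists integrins on fibronectin, rose 1.09-fold and 1.24-fold. CTNNB1, which links cadherins to the cytoskeleton as beta-catenin, rose 1.10-fold and 1.05-fold, and ITGB5 rose 1.09-fold and 1.07-fold. ITGB1 and SDC4 passed in all 18 alternative settings with each hairpin. CTNNB1 and ITGB5 did so with shUGDH-1 and in 13 settings each with shUGDH-2. DESeq2 gave no shUGDH-2 call for either, nor did leaving out replicate 3 of shNT or replicate 2 of shUGDH-2. CTNNB1 was also lost without replicate 1 of shUGDH-2 and when only the 2 groups compared were fitted, and ITGB5 without replicate 1 of shNT or replicate 3 of shUGDH-2. ITGA5 was lost with DESeq2 and without replicate 3 of shNT or replicate 1 or 3 of shUGDH-1.

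Genes whose pattern over the 9 libraries was most like each gene that passed were sought among 10360 genes of at least 5 CPM. The measure was the root mean square difference in log2 CPM centred on shNT. Because the genes were picked on these same values, their folds follow those of the gene they resemble. Their p-values are thus no separate evidence, and the smallest differences lie below the median by design. For VIM the closest genes were MKI67 (0.0173), ANXA2 (0.0261) and LATS2 (0.0317), against a median of 0.148 over the candidates. MKI67, the proliferation antigen Ki-67, rose 1.12-fold with shUGDH-1 (adjusted p = 2.96e-10, edgeR) and stood at 0.968 times shNT with shUGDH-2 (adjusted p = 0.0815, edgeR). For FN1 they were DSP (0.0376), PXDN (0.0378) and PLAT (0.0426), against a median of 0.314. DSP, which encodes desmoplakin, a protein of epithelial desmosomes, rose 1.37-fold and 1.17-fold, and PXDN, a matrix peroxidase that cross-links collagen IV, 1.39-fold and 1.22-fold. For TNC they were FTL (0.096), ATP5S (0.101) and MTHFD2L (0.101), a looser likeness, against a median of 0.343. FTL, the ferritin light chain, fell to 0.655 and 0.863 times shNT. For SNAI2 they were IL6 (0.0544), GOSR2 (0.0546) and ZNF621 (0.0547), against a median of 0.165. IL6, an inflammatory cytokine gene, stood at 362 CPM in shNT, fell to 314 with shUGDH-1 and rose to 392 with shUGDH-2 (adjusted p = 1.87e-07 and 0.00176, edgeR). For ZEB1 they were MRPL30 (0.026), TOMM34 (0.0285) and ZNF507 (0.0335), against a median of 0.131, and of these only TOMM34 passed, lower with shUGDH-1 (adjusted p = 0.0292, edgeR).

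**Figure D5:**
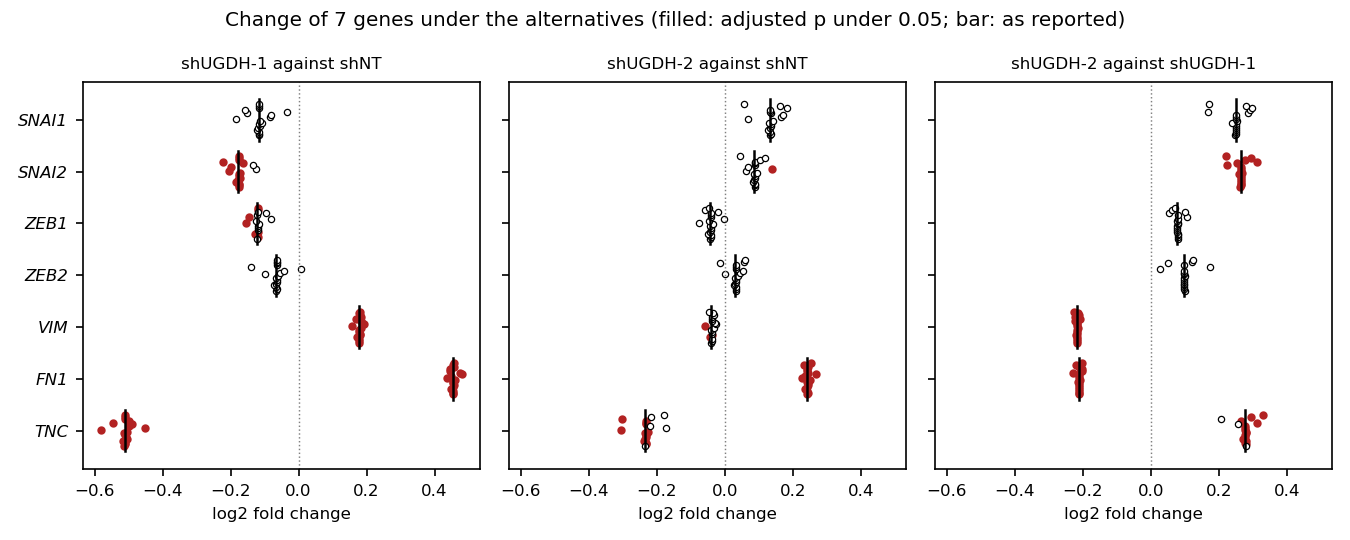
Log2 fold change of 7 genes (CDH2 is left out for its spread) under 18 alternative settings, filled where the adjusted p was under 0.05, with a bar at the value reported here. All points of FN1 are filled in each comparison, ZEB1 is filled in 8 settings with shUGDH-1 alone, and none changes side of 0 while filled.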

How the data were processed

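RNA of 9 libraries (shNT, shUGDH-1 and shUGDH-2, 3 each) was analysed from the deposited count table, which holds raw read counts per gene, as its whole numbers with unequal sums show. The submitters' processing notes name STAR, DESeq, DESeq2 and the build hg19. Which versions, annotation and counter were used, and whether strand was, is not given in the sources used here. Per the file headers, the authors' deposited comparison tables hold a mean signal (baseMean), log2 fold changes with standard errors, p-values and adjusted p-values. They were used only where named.

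The genes and lists were chosen with earlier results of these data known. Counts were fitted over all 9 libraries with edgeR 4.0.16 in R 4.3.3 (filterByExpr, TMM factors of 0.997 to 1.003, robust glmQLFit, glmQLFTest), with a mean per group and 6 residual degrees of freedom. Benjamini-Hochberg adjustment ran over the 12546 genes tested, which hold 99.93% of the counts. The threshold was an adjusted p of 0.05. The filter depends on low counts, so CDH2 is near its limit. Entries with symbols turned into dates (28, with 0.232% of counts) stayed in the fit unnamed. The script was tested on simulated data. Exon lengths came from GENCODE in GRCh38, matched by symbol for 21230 of 23710 entries, and the promoter windows from RefSeq (GRCh38.p14). Both builds differ from hg19, and no coordinate was converted.

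Named genes were all 10 genes, UGDH, 10 genes chosen for their known roles, and of each list up to 4 with a mean of 1 CPM or more, taking first those called with both hairpins, then by fold change. For each of the 10 that passed and had at least 5 CPM, the 3 genes most alike were named. Alternatives were other scalings, filters and tests (DESeq2 1.42.0, limma 3.58.1), fewer groups, a replicate block and each library left out.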

Additional observations from a re-analysis of the deposited data

Results flagged for a closer look

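The effects of the hairpins differed for 4 of the 8 tested genes in the direct comparison of shUGDH-2 with shUGDH-1 by edgeR's quasi-likelihood test. Of these, 2 were higher and 2 lower with shUGDH-2, beside 5.36% and 5.51% of all genes. On the log2 scale the difference was 0.26 for SNAI2, -0.22 for VIM, -0.21 for FN1 and 0.28 for TNC. The TNC call was lost with DESeq2 and without replicate 1 of shUGDH-1 or replicate 1 of shUGDH-2. For SNAI2 and VIM the values against shNT had opposite signs with the hairpins, and only those with shUGDH-1 passed. FN1 and TNC kept their direction with both and were nearer to shNT with shUGDH-2. SNAI2 and FN1 hold a match to the shUGDH-2 seed in their 3′ UTR and VIM and TNC hold none, and its part in these differences was not tested.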

How the results depend on the processing

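No gene of the 10 reversed under any alternative while called. FN1 in all 3 comparisons, VIM with shUGDH-1 and between the hairpins, TNC with shUGDH-1 and SNAI2 between the hairpins passed in all 18. SNAI1, ZEB2 and CDH2 passed in none, and CDH2 with shUGDH-1 had a value in 17. With DESeq2 fewer genes passed overall: 816 higher and 725 lower with shUGDH-1 (edgeR 1318 and 1287), 545 and 413 with shUGDH-2 (edgeR 1009 and 855), and 392 and 364 between the hairpins (672 and 691). The cause was not tested. Without 1 library at a time, the genes lower with shUGDH-2 numbered 496 to 815, lowest without replicate 1 of shUGDH-2. Of the 10 genes, those lower with shUGDH-1 then numbered 1 to 3, those higher with shUGDH-2 1 to 2, those lower with shUGDH-2 0 to 2, and those higher with shUGDH-2 than with shUGDH-1 1 to 2. The second gene higher with shUGDH-2 was SNAI2, without replicate 2 of shNT (0.14, adjusted p = 0.0485, edgeR). Of the 10, the genes lower with shUGDH-2 were 0 with DESeq2 and 2 with library totals only and with limma-voom, where VIM passed too. Those higher with shUGDH-2 than with shUGDH-1 were 1 with DESeq2. Other scalings moved the median of all genes by less than 0.01 on the log2 scale. Of 756 list counts under alternatives, 680 stayed within 1.5 times.

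Replicate numbers did not pair the libraries: same-numbered libraries of different groups had correlations of deviations of -0.0817 to 0.132, with 1 of 9 over 0.1, against -0.119 to 0.0934 for other numbers, and 2 of 9 libraries correlated best with their own number. With a replicate block shUGDH-1 gave 1298 genes higher and 1284 lower, shUGDH-2 993 and 864, and 658 and 668 between the hairpins. ZEB1 with shUGDH-1 then had a value of -0.12 (adjusted p = 0.0508, edgeR), and no other call of the 10 changed under the block. Depth limits the genes with few counts over the 3 shNT libraries, such as CDH2 (25), SNAI3 (17), CDH1 (8) and TWIST1 and TWIST2 (0).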

Other observations

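TIMP3, COL1A2 and CDH4 were among the mesenchymal genes outside the 10 that passed against shNT in opposite directions with the hairpins, and they were singled out after their values were seen. TIMP3, an inhibitor of matrix metalloproteases, stood at 30.9 CPM in shNT, 44.4 in shUGDH-1 and 18.0 in shUGDH-2. COL1A2, a chain of type I collagen, stood at 6.18, 11.8 and 3.84 CPM. CDH4, which encodes R-cadherin, stood at 235, 222 and 269 CPM. Between the hairpins these differed by -1.30, -1.60 and 0.28 on the log2 scale, in that order of genes, and each passed by edgeR's quasi-likelihood test (adjusted p = 3.75e-23, 2.82e-13 and 1.99e-12). THBS1, a matrix glycoprotein gene, rose from 5426 CPM to 6404 and 6437, and did not pass between the hairpins (0.01, adjusted p = 0.808, edgeR). KLF8, an EMT-promoting factor also named after its values were seen, was low throughout, at 0.424, 0.388 and 1.45 CPM. At these levels it could pass the filter on low counts through shUGDH-2 alone, the group where it was highest. Its call as higher with shUGDH-2, counted above among the EMT-promoting factors, is therefore tied to that filter and is given as description only.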
